A study of Danio rerio with 26 samples.

Results

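The comparison set alcohol-exposed female zebrafish brain against alcohol-exposed male zebrafish brain, transcript by transcript. Members were the transcripts at 1 TPM or more in at least 2 of the 4 libraries of this comparison (TPM is an abundance estimate scaled for transcript length and for the total of a library). This rule kept 34320 of the 57918 listed transcripts and did not look at the difference between the sexes. All fish were adult zebrafish of the wild-type AB strain with short fins. Alcohol-exposed females and alcohol-exposed males each gave 2 brain libraries, after 9 weeks in water with 0.5% ethanol. After alcohol was withdrawn, females gave 2 and males 3 brain libraries, and the length of the withdrawal is not given in the sources used here. Control females gave 3 and control males 2 brain libraries, after the same daily tank transfers without ethanol. Livers of the same 6 groups gave 2 libraries each. The labels describe 30 fish in each of the alcohol and control tanks, kept by sex and bred during the later weeks, and tissue pooled within groups. Whether the replicate libraries of a group held different fish is not stated, so p-values here cover only library-to-library spread and that spread may be technical.

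Zebrafish of the AB strain, like other domesticated laboratory strains, carry no single sex chromosome that decides sex, so a brain transcript cannot be assigned to a sex by a chromosome alone. Sex steroids reach the fish brain through the blood and are also made within it, where radial glia, the stem cells that line the ventricles, express the enzyme that turns androgens into oestrogens. In egg-laying fish, oestrogen also drives the female liver to secrete egg yolk precursor proteins in bulk. These points are background and were not measured here. The tables identify transcripts by Ensembl identifier, and the gene tables used here hold no transcript identifiers. Members are therefore described by identifier, level and behaviour, with no gene name or role, and neither brain nor other cell type markers could be checked by name.

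Of the members, 27640 were at 1 TPM or more in all 4 libraries, 3108 in 3 and 3572 in exactly 2. Among those in exactly 2, 1217 entered through both female libraries and 693 through both male libraries, and these had to differ between the sexes. Just inside the rule, 533 members had a second highest value of 1 to 1.1 TPM and a median mean level of 0.893 TPM. Just outside, 570 transcripts had a second highest value of 0.9 to 1 TPM and a median mean level of 0.806 TPM. The limma fit tested 36682 transcripts, all members among them, over the 14 brain libraries.

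The 4 alcohol libraries stood apart from the other 10 in composition, so their levels against other conditions rest on the rescaling. TPM was divided by 2.18 and 2.04 in the alcohol females and by 2.05 and 2.14 in the alcohol males, against 0.6 to 0.946 in the other brain libraries. At 1 TPM or more, 33304 and 33027 transcripts were detected in the alcohol females and 32287 and 32641 in the alcohol males, against 22579 to 27740 in the other libraries. The divisors of the sexes overlapped, and both females had slightly more detected transcripts than both males. In alcohol females 42.7% ± 2.84 of TPM lay in the 1000 transcripts at the top of each library, and in alcohol males 44.4% ± 5.23 (SD, n = 2 each, two-sided exact permutation p = 1). The top 100 held 27.8% ± 2.79 in females and 29.2% ± 4.27 in males (SD, n = 2 each, exact permutation p = 0.667). With 2 libraries against 2, the smallest p this test allows is 0.333. Read depth is unknown, since the files hold TPM and no counts.

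Alcohol-exposed female and male brains differed in a small part of their transcripts, and the largest differences were transcripts present in females and near absent from males. By the limma fit, at a Benjamini-Hochberg adjusted p below 0.05, 2460 members were called (7.17% of members, beside 6.71% of all tested transcripts). Of these, 1361 were higher in females (3.97% of members, 3.72% of all tested) and 1099 were higher in males (3.2% of members, 3.00% of all tested). The median log2 difference, female minus male on the log2(rescaled TPM + 1) scale, was 1.11 in the first group and −0.799 in the second. Over all tested transcripts it was 0.016, a value that the rescaling holds near 0, and 0.031 without rescaling. The number called rested on the scaling, at 4348 without rescaling (2520 female-higher and 1828 male-higher) and 5162 under quantile normalisation (2538 female-higher and 2624 male-higher).

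The size of the differences was uneven between the directions. Past 2-fold, 791 members were called higher in females (beside 2.16% of all tested) and 351 higher in males (beside 0.957% of all tested). Without rescaling these counts were 1507 and 871, and with 5 TPM in place of 1 added before taking logs they were 261 and 74. Past 8-fold the counts were 153 and 14, and past 32-fold 13 and 1. Members that entered through 1 sex carry much of this. Among the 27640 members at 1 TPM or more in all 4 libraries, 721 were called higher in females and 883 higher in males, 297 and 192 past 2-fold, and 7 and 2 past 8-fold. In 674 of the 1361 female-higher members both male libraries were below 1 rescaled TPM, and 275 were listed at 0 in both males. In 225 of the 1099 male-higher members both female libraries were below 1 rescaled TPM, and 77 were listed at 0 in both females. An exact 0 in such files may also be an estimate that failed, where reads fit more than 1 transcript.

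The calls have to be read against a spread within each sex that was not much smaller than the difference between the sexes. Over all members, the SD of the log2 difference was 0.639 to 0.731 between a female and a male library, 0.453 between the 2 females and 0.528 between the 2 males. Differences past 2-fold separated a female from a male library in 2810 to 4031 members, the 2 females in 1569 and the 2 males in 2145. Both female libraries lay above both male libraries in 9370 members and below them in 8678; over all tested transcripts the shares were 26.0% and 24.1%. The limma fit had 8006 members at an unadjusted p below 0.05. Leaving out 1 alcohol library left 859 members called without female replicate 2, 1114 without female replicate 1, 1190 without male replicate 2 and 1883 without male replicate 1. Fitted on the 4 alcohol libraries alone, 183 members were called, 167 higher in females and 16 in males. Of the 49 transcripts named below, 31 lost their call in that fit. Called in the full fit and again without each of the 4 libraries in turn were 447 female-higher and 219 male-higher members.

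**Figure D1:**
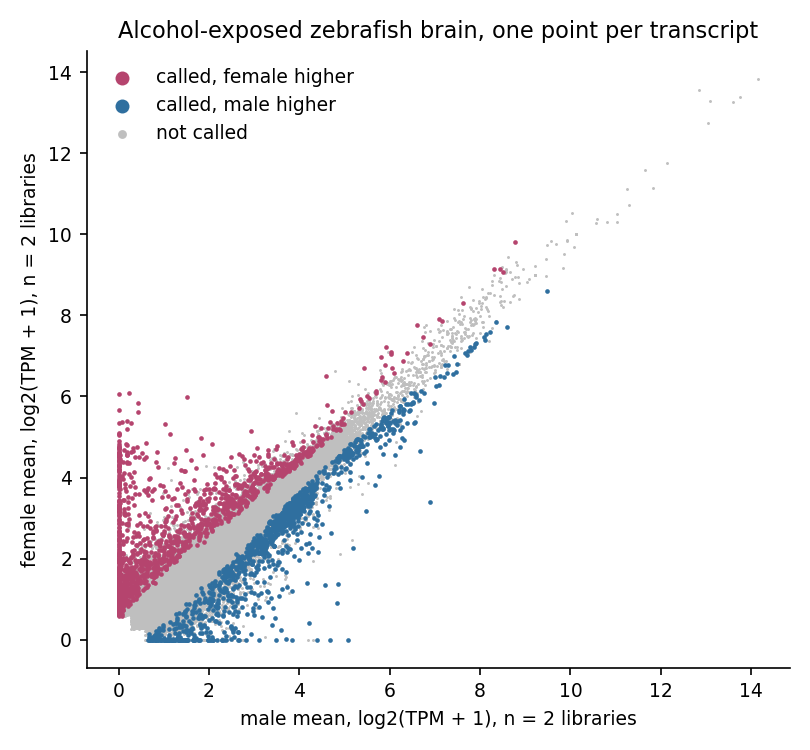
Mean level of each member in alcohol-exposed females (vertical) against alcohol-exposed males (horizontal), both as log2(rescaled TPM + 1) over 2 libraries, with 1361 members called higher in females, 1099 called higher in males and the rest in grey. A column of female-higher members stands at the left edge, near 0 in males, and reaches a log2 value of about 6, with few members on the opposite edge.

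Called members were found at every level of abundance, with different directions at different levels. Below 5 TPM in the mean of the 4 libraries, 527 of 11311 members were called higher in females and 229 higher in males. From 5 to 20 TPM the counts were 499 and 415 of 10631, and from 20 to 100 TPM they were 304 and 364 of 11732. From 100 to 300 TPM, 23 of 414 members were called higher in females (5.56%) and 74 higher in males (17.9%). That majority shrank to 75 male-higher against 69 female-higher under quantile normalisation, with 40 female-higher against 78 male-higher without rescaling. Above 1000 TPM, 1 of 52 members was called in each direction.

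The members with the largest female excess were present at 28.4 to 76 rescaled TPM in both females and at or near 0 in both males. ENSDART00000147197.1 was at 66.3 and 68.7 rescaled TPM in alcohol females and at 0.117 and 0.238 in alcohol males. The groups did not overlap, and the log2 difference was 5.86 ± 0.262 (SE, limma adjusted p = 3.18e-07). That size holds for the 1 TPM added before taking logs, and was 7.96 with 0.1 TPM and 3.81 with 5 TPM. The transcript was also at 2020 and 3350 rescaled TPM in withdrawal females, against 0.448, 0.505 and 1.02 in withdrawal males. Control females had 102, 116 and 97.3, against 0 and 0.6 in control males. The female excess of this transcript was thus present in all 3 conditions, and highest in level after withdrawal.

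Several others had the same shape. ENSDART00000043067.7 had 40 and 38.8 rescaled TPM in alcohol females and was listed at 0 in both alcohol males (limma adjusted p = 1.35e-07). ENSDART00000149398.1 had 46.8 and 52.9 in alcohol females and was listed at 0 in both alcohol males (limma adjusted p = 3.35e-06). ENSDART00000143367.2 had 32.2 and 34.5 in females, ENSDART00000138713.2 had 37.7 and 28.4, and both were listed at 0 in both males (limma adjusted p = 3.18e-07 for each). No fold is given for those at 0, because it would depend on the value added before taking logs. ENSDART00000105308.4 was at 46.5 and 50.4 in females and 0.318 and 0.369 in males. Its log2 difference was 5.2 ± 0.253 (SE), but 6.78 with 0.1 TPM and 3.32 with 5 TPM added. ENSDART00000134029.2 was at 41.6 and 39.7 in females and 0 and 0.098 in males, and ENSDART00000113186.3 at 42.6 and 39.6 in females and 0 and 0.28 in males. All 7 were called under each of the 14 alternative fits run for the named transcripts.

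Another pair with a large female excess carried very high levels in female liver. ENSDART00000050238.5 was at 55 and 58.3 rescaled TPM in alcohol female brains and at 0.401 and 0.313 in alcohol male brains (log2 difference 5.41 ± 0.576 SE with 1 TPM added, limma adjusted p = 2.86e-04). Its level in alcohol liver was 80700 and 77900 in females, against 0.0682 and 0.294 in males. After withdrawal its brain level was 21.2 and 6.79 in females and 11.3, 11.4 and 11.8 in males, so that the sexes overlapped. In controls it was 303, 255 and 362 in female brains and 0.159 and 3.95 in male brains. ENSDART00000113682.3 had the largest fitted difference of all, with 56.1 and 76 in alcohol female brains and 0 and 0 in male brains (limma adjusted p = 0.0165). The call was lost when any 1 of the 4 was left out. Its fitted log2 difference, which depends on the 1 TPM added, then stayed at 5.76 to 6.18. Fitted on the 4 alcohol libraries alone, the transcript was called (limma adjusted p = 0.0286, SE 0.191). In the full fit, which takes its spread from all groups, the SE was 1.24. Control males were at 0 and 38.3.

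**Figure D2:**
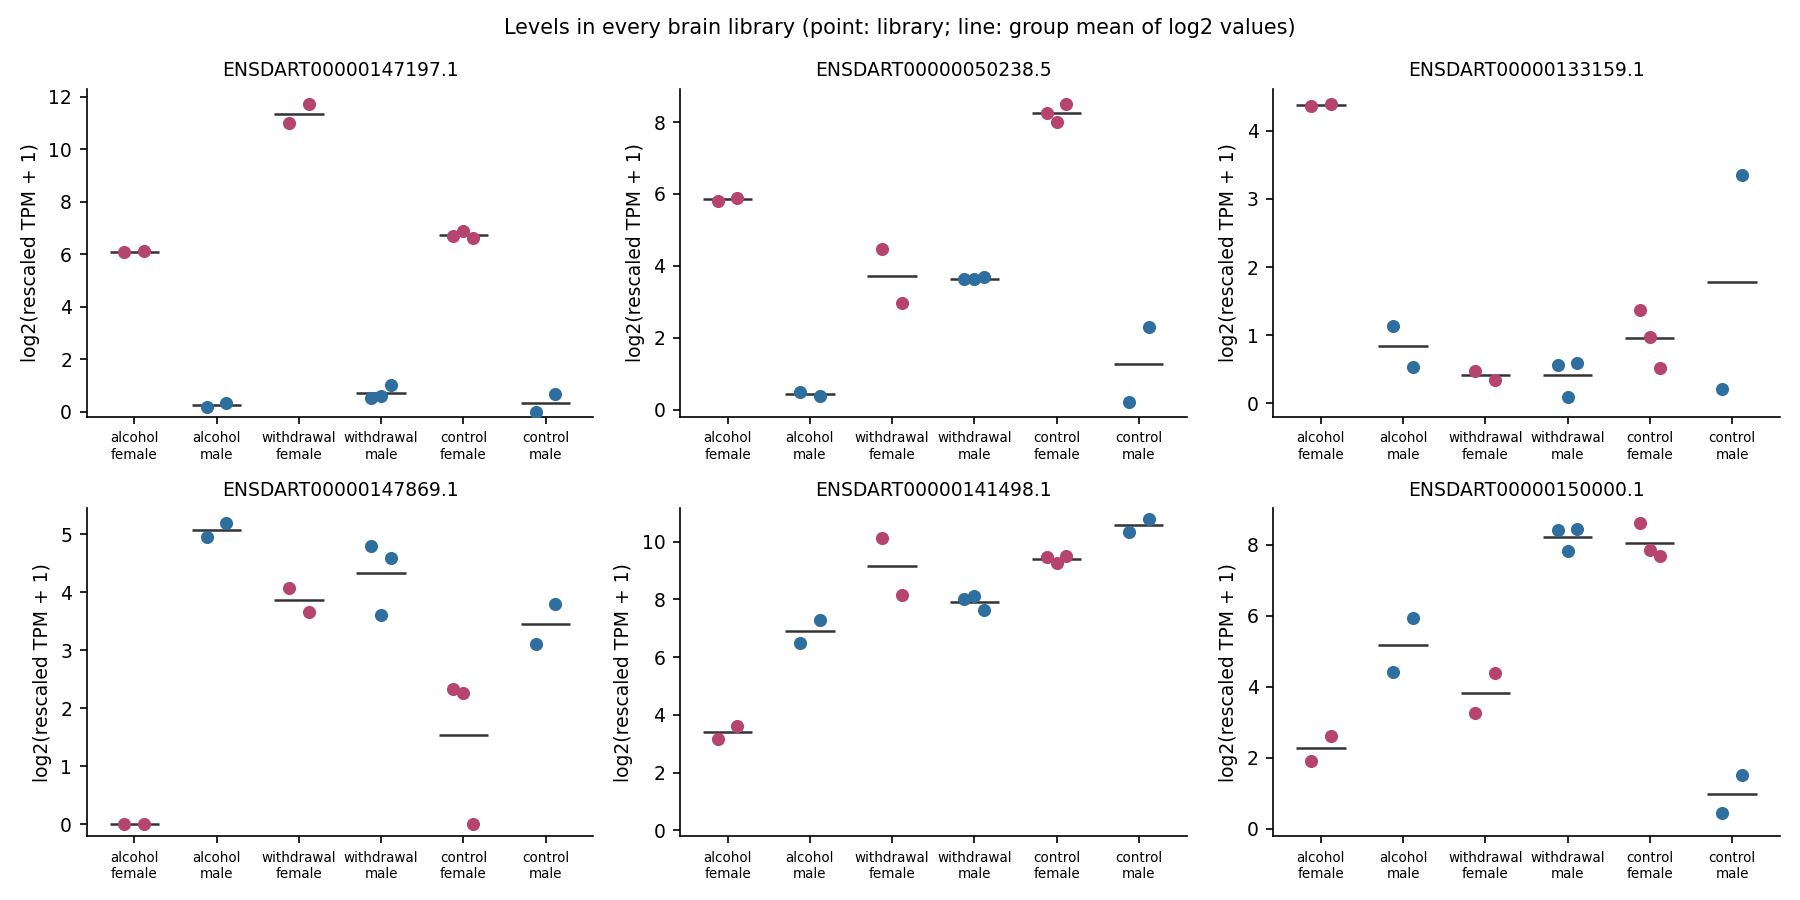
Level of 6 named members in each of the 14 brain libraries as log2(rescaled TPM + 1), females in red and males in blue, with lines at the group means; alcohol groups stand at the left, then withdrawal, then control. ENSDART00000147197.1 is high in every female group, ENSDART00000050238.5 separates the sexes under alcohol and in controls, and ENSDART00000150000.1 is lower in females under alcohol and after withdrawal but higher in females among controls.

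A group of female transcripts could be taken from levels in the other brains, with the alcohol libraries used only in the rescaling. At 5 rescaled TPM or more in all 5 withdrawal and control females and at 1 or less in all 5 withdrawal and control males were 89 transcripts, and the mirrored rule for males found 0. The list was drawn up after values had been seen, so its behaviour under alcohol is a description. All 89 were members, and in all 89 both alcohol females lay above both alcohol males. Of them 87 were called higher in females, with and without the rescaling and under quantile normalisation, and 84 were past 4-fold. In the alcohol males 49 of them were listed at 0 in both libraries. Their median log2 difference was 4.26, beside 0.016 over all tested transcripts. The size of that median depends on the 1 TPM added, since 88 of them were at most 1 TPM in both alcohol males.

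Summed over the 89, deposited TPM was 3720 and 3420 in alcohol females and 67.6 and 64.1 in alcohol males. It was 14300 and 20700 in withdrawal females, against 14.8, 14.2 and 14.3 in withdrawal males. In controls it was 1200, 1520 and 1850 in females and 6.86 and 9.06 in males. These sums are not rescaled. The divisors were 2.18 and 2.04 in alcohol females, against 0.844, 0.824 and 0.896 in control females, so alcohol and control sums do not compare levels. Median rescaled TPM over the 89 was 20.6 and 20 in alcohol females and 11.3, 16 and 16.1 in control females. The group held 0.372% and 0.342% of all TPM in the alcohol female libraries and 1.43% and 2.07% in the withdrawal female libraries. Most of the sum in alcohol males came from 1 transcript. ENSDART00000111240.4 was at 24.9 and 23.6 rescaled TPM in alcohol females and 22.6 and 22.2 in alcohol males, a log2 difference of 0.108 (limma adjusted p = 0.876). The other transcript without a call, ENSDART00000153400.2, was at 5.18 and 0.792 in females and 0.274 and 0.467 in males (log2 difference 1.28, limma adjusted p = 0.146).

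Levels within the 89 spread less in the alcohol females than in the withdrawal females. The interquartile range ran from 13 to 23.9 rescaled TPM in one alcohol female and from 13.8 to 23.5 in the other. In the withdrawal females it ran from 86.1 to 332 and from 110 to 420. In the control females it ran from 7.69 to 21.2, from 10.1 to 25.5 and from 11 to 29. The alcohol and withdrawal female libraries as a whole also differed in spread. Their top 1000 transcripts held 40.7% and 44.7% of TPM in alcohol females, against 70.1% and 69% in withdrawal females. Whether the smaller spread is particular to the 89 was not tested. Across the 89 transcripts, the log2 levels of the 2 alcohol females correlated at 0.955. An alcohol and a withdrawal female correlated at 0.358 to 0.392, an alcohol and a control female at 0.402 to 0.444, and a withdrawal and a control female at 0.661 to 0.751. These correlations are over transcripts, which are not independent, and describe only these libraries. The median rescaled TPM of the 89 was lower in alcohol females (20.6 and 20) than in withdrawal females (145 and 201). Several possible sources of that difference were not tested and cannot be told apart in pooled tissue. They include fewer cells of a type that carries these transcripts, less RNA per cell, RNA of another tissue and library composition.

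The same 89 were higher in females in the liver too, at much lower female levels after withdrawal. Their summed TPM was 3190 and 3480 in alcohol female livers and 13 and 31.8 in alcohol male livers. After withdrawal it was 71.4 and 74.4 in female livers and 4.96 and 5.17 in male livers, and in controls 2870 and 2600 in female and 15.9 and 2.44 in male livers. The liver fit called 88 of them higher in females under alcohol, 55 after withdrawal (with 1 higher in males) and 88 in controls. The sum in withdrawal females was thus high in brain and low in liver. Whether the transcripts came from brain cells or from another tissue carried with it was not tested.

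**Figure D3:**
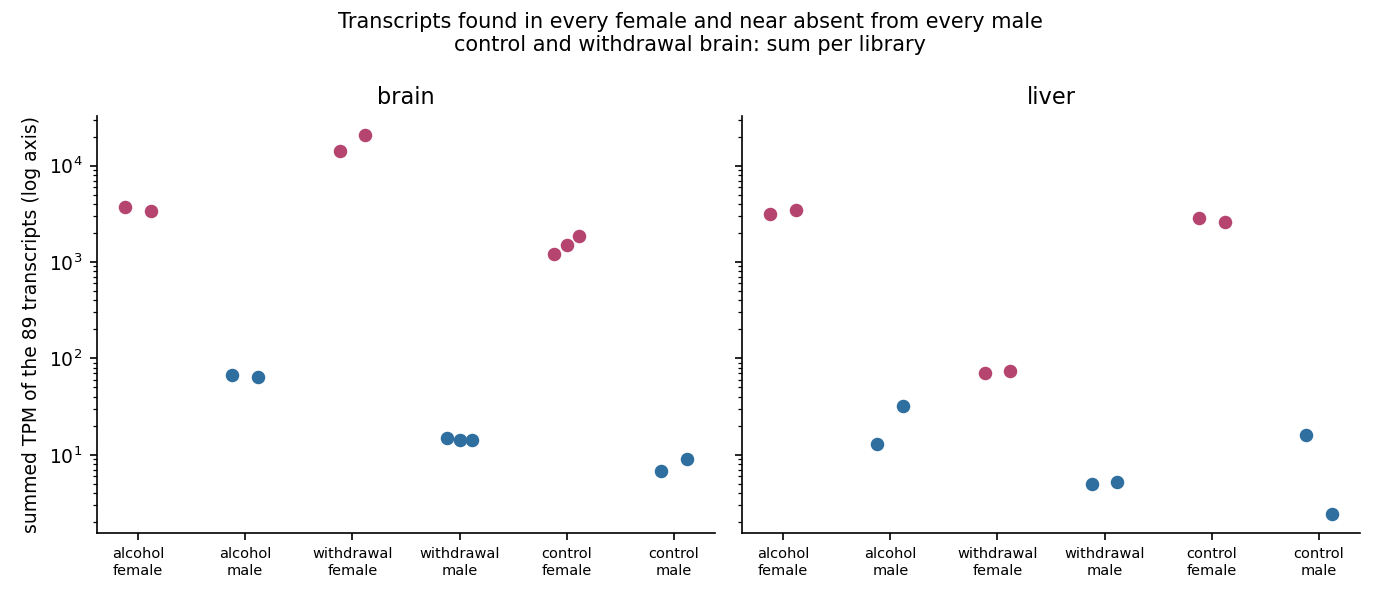
Summed deposited TPM of the 89 transcripts in every brain (left) and liver (right) library on a log axis, females in red and males in blue, for alcohol, withdrawal and control groups. The sums are not rescaled, so alcohol and control groups are not compared by them. Alcohol female brains sit at 3720 and 3420, above alcohol male brains at 67.6 and 64.1; withdrawal females are the highest group in brain and the lowest female group in liver.

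Among female-higher members found in liver, the larger part was also higher in alcohol-exposed female liver. Of the 1361, 927 were tested in liver, and 514 of these (55.4%) were called higher in females there and 83 (8.95%) higher in males. Of all 18319 members tested in liver, 2989 (16.3%) were called higher in alcohol females and 2675 (14.6%) in alcohol males. Of all 21158 transcripts tested there the shares were 15.3% and 14.3%. Among the 1099 male-higher members, 608 were tested in liver. Of these, 36 (5.92%) were called higher in alcohol female and 209 (34.4%) higher in alcohol male livers.

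In withdrawal livers the shares were near those of all tested transcripts, while in control livers the same direction was called about as often as in alcohol livers and the opposite direction more often. In withdrawal livers 204 of the 927 (22%) were higher in females and 151 (16.3%) in males, beside 19.4% and 21.4% of all tested. In control livers 490 (52.9%) were higher in females and 178 (19.2%) in males, beside 27.4% and 24.4% of all tested. Among the 608 male-higher members, 104 were higher in females and 130 in males in withdrawal livers, and 126 and 226 in control livers. Called in the same direction in the alcohol brain and in all 3 liver comparisons were 126 female-higher and 36 male-higher members. These counts are given without a share over all tested transcripts and so have no background.

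The match did not rest only on transcripts missing from one sex. Among the 468 female-higher members that were at 1 rescaled TPM or more in both males, 202 (43.2%) were called higher in alcohol female liver and 47 (10%) in alcohol male liver. Among the 488 male-higher members at 1 or more in both females, 31 (6.35%) were called higher in alcohol female and 169 (34.6%) in alcohol male liver. The count of 514 was 310 without female replicate 2, 327 without male replicate 2, 341 without female replicate 1 and 446 without male replicate 1. It was 145 when the brain fit used only the 4 alcohol libraries.

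Transcripts abundant in liver were also read in these brains. Over 7 transcripts at 100 TPM or more in every control liver and under 1 TPM in every control brain, deposited TPM summed to 21.5 and 24.4 in alcohol females and 8.89 and 7.27 in alcohol males. The other brain libraries had 0.28 to 4.87, which the rule itself keeps low in controls. These sums are not rescaled, so they do not compare alcohol with the other conditions. The divisors were 2.04 to 2.18 in the alcohol libraries and 0.6 to 0.946 in the others. Over 11 transcripts at 1000 TPM or more in both alcohol female livers and 10 or less in both alcohol male livers, the sum was 393 and 416 in alcohol female brains and 3.07 and 2.12 in alcohol male brains. In withdrawal brains it was 153 and 47.1 in females and 17.8 to 20.5 in males, and in control brains 726 to 935 in females and 0.6 and 27.2 in males. Of the 11, 10 were members. Since they were chosen for a female excess in liver, these sums do not compare the amount of liver RNA between the sexes. Without rescaling, they do not compare conditions either. The part of these values in the brain differences was not tested.

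Named members with the same direction in all 3 livers included transcripts that were abundant in female liver. ENSDART00000061165.6 was at 22.3 and 22.8 rescaled TPM in alcohol female brains and 0.0538 and 0 in male brains. Its log2 difference was 4.52 ± 0.165 (SE, limma adjusted p = 1.35e-07), but 7.51 with 0.1 TPM and 2.45 with 5 TPM added. Its liver level was 13100 and 12400 in females and 0.00852 and 0.049 in males. ENSDART00000078225.6 was at 18.6 and 19.3 in female brains and listed at 0 in both male brains (limma adjusted p = 2.81e-07), with 14600 and 14600 in female livers and 26.4 and 9.57 in male livers. Both were higher in males in withdrawal brains. ENSDART00000136837.1 was at 13.6 and 13.6 in female brains and 0.00978 and 0 in male brains. Its log2 difference was 3.86 ± 0.269 (SE), but 7.03 with 0.1 TPM and 1.9 with 5 TPM added.

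**Figure D4:**
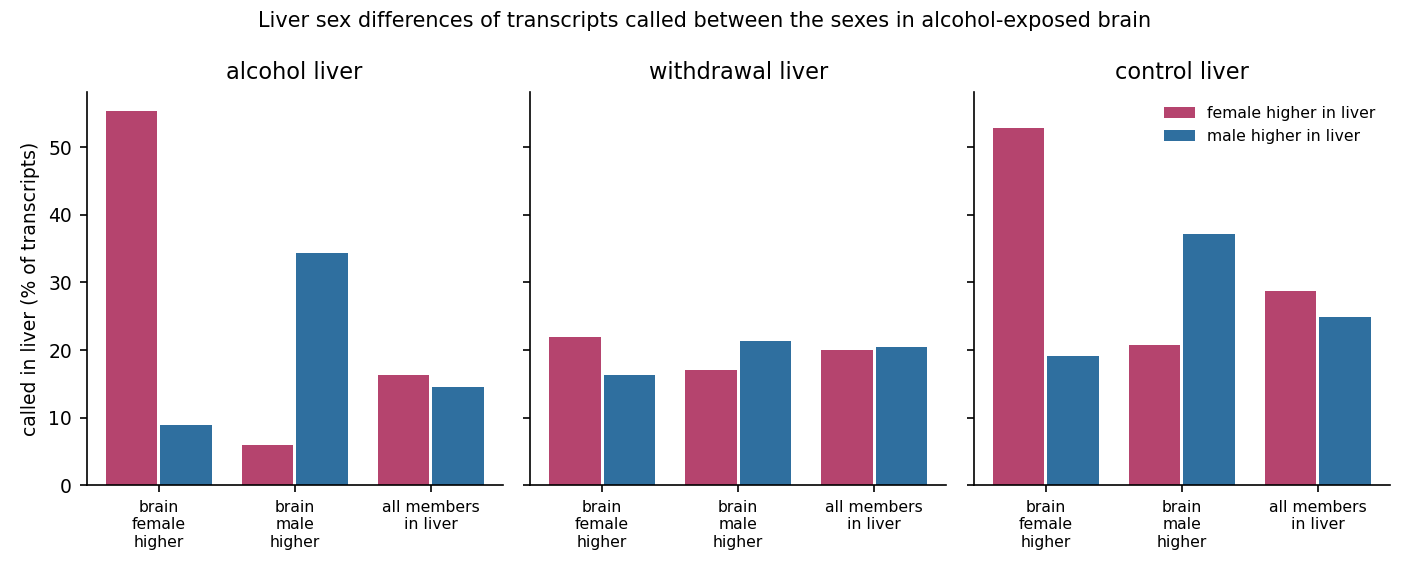
Share of transcripts called higher in females (red) and in males (blue) in alcohol, withdrawal and control liver, for the 927 members called female-higher and the 608 called male-higher in alcohol-exposed brain, and for all 18319 members tested in liver. In alcohol liver, 55.4% of the brain female-higher members are called female-higher, against 16.3% of all members; in withdrawal liver the share is 22%.

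Of the 10 largest male-higher differences, 5 were transcripts listed at 0 in both alcohol females. ENSDART00000147869.1 was listed at 0 in both females and was at 29.9 and 35.5 rescaled TPM in males (limma adjusted p = 0.00138). Withdrawal brains had 15.9 and 11.6 in females, against 26.8, 11.2 and 23.1 in males. Control brains had 4.05, 3.8 and 0 in females and 7.66 and 12.9 in males. The alcohol males were thus above, and the alcohol females at or below, every other brain library.

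ENSDART00000166111.1 was listed at 0 in both alcohol females and at 18.5 and 21.4 in alcohol males (limma adjusted p = 0.00421). ENSDART00000060971.4 was listed at 0 in both females and at 7.62 and 13.3 in males (limma adjusted p = 1.37e-05), below all 10 other brain libraries, which had 17.9 to 43. Here both alcohol sexes were low, and the females more so. ENSDART00000141498.1 was at 7.92 and 11.3 in alcohol females and 88.7 and 155 in alcohol males, a log2 difference of −3.49 ± 0.498 (SE, limma adjusted p = 0.00221). It was at 1110 and 286 in withdrawal females, against 256, 275 and 199 in withdrawal males, and at 707, 612 and 724 in control females, against 1300 and 1750 in control males. ENSDART00000170632.1 was at 0.778 and 0 in alcohol females and 23.9 and 12.8 in alcohol males (log2 difference −3.80 ± 0.571 SE, limma adjusted p = 0.00304). ENSDART00000170632.1, ENSDART00000141498.1 and ENSDART00000060971.4 were not called in the fit on the 4 alcohol libraries alone.

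The calls of the other large male-higher differences were lost when single libraries were left out. ENSDART00000129524.2 was listed at 0 in both alcohol females and at 86.6 and 6.45 in alcohol males (limma adjusted p = 0.031). Its call was lost without male replicate 1 or either female replicate, at an adjusted p of up to 0.152. ENSDART00000010258.9 was at 0 and 0.0294 in females and 33 and 4.07 in males (adjusted p = 0.0115 in limma), and its call was lost without either female replicate, at up to 0.0809. ENSDART00000102253.4, at 0.334 and 3.97 in females and 41.6 and 18.7 in males, lost its call without male replicate 1 or female replicate 1 (limma adjusted p = 0.0173 with all libraries and up to 0.124 without 1). ENSDART00000162034.1, at 2.48 and 0 in females and 13.7 and 54.6 in males, lost it without male replicate 2 or either female replicate (limma adjusted p = 0.0368 with all libraries and up to 0.251 without 1). ENSDART00000167307.1, listed at 0 in both females and at 14.1 and 12.4 in males, lost it without any 1 of the 4 (limma adjusted p = 0.0294 with all libraries). Its fitted log2 difference then stayed at −3.83 to −3.68. Fitted on the 4 alcohol libraries alone, this transcript was called (limma adjusted p = 0.0318, SE 0.168 against 0.889 in the full fit). The others of this group were not called in that fit.

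The abundant members named were chosen as called, past 2-fold and without overlap between the groups of 2. Most had smaller differences than the members above, which were chosen for size. ENSDART00000141498.1, with a mean of 138 TPM and a log2 difference of −3.49, was on both lists and is given above. ENSDART00000026180.8, the most abundant past 2-fold, was at 812 and 988 rescaled TPM in alcohol females and 457 and 421 in alcohol males. Its log2 difference was 1.03 ± 0.171 (SE, limma adjusted p = 0.00571, and 0.0622 without female replicate 2). ENSDART00000039267.6 was at 143 and 156 in females and 60.7 and 59.1 in males, a log2 difference of 1.3 ± 0.124 (SE, limma adjusted p = 1.26e-04). It was called under all 14 alternatives. In alcohol liver it was called the other way, at 18.5 and 19.4 in females and 34.6 and 39.4 in males (log2 difference −0.927, limma adjusted p = 0.00273).

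ENSDART00000059732.4 was at 124 and 136 in alcohol females and 75.5 and 55.3 in alcohol males (log2 difference 1.00 ± 0.136 SE, limma adjusted p = 0.00165). ENSDART00000004679.7 was at 202 and 233 in females and 95 and 96.7 in males, but its limma adjusted p of 0.0174 reached up to 0.125, and its call was lost, without any 1 of the 4 libraries. ENSDART00000081325.4 was at 132 and 139 in females and 90.7 and 44.9 in males, with a limma adjusted p of 0.0364. That call was lost without male replicate 2 or either female replicate, at up to 0.179.

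On the male side, ENSDART00000028373.4 was at 24 and 24.5 in alcohol females and 107 and 96 in alcohol males (log2 difference −2.02 ± 0.23 SE, limma adjusted p = 4.63e-04, called under all 14 alternatives). Its alcohol liver level had the same direction, with 105 and 121 in females and 353 and 281 in males. Apart from ENSDART00000039267.6, which went the other way, the remaining abundant members named were not called in alcohol liver or not tested there. ENSDART00000159483.1 was at 44.3 and 37.2 in female brains and 89.5 and 98.7 in male brains. ENSDART00000084014.5 was at 58.4 and 53.9 in females and 110 and 141 in males, and ENSDART00000066896.4 at 37.4 and 42.5 in females and 90.6 and 91.9 in males. Their log2 differences were −1.19 ± 0.154, −1.14 ± 0.177 and −1.17 ± 0.183 (SE).

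On the rescaled log2 scale, the sex difference under alcohol was narrower than in the other conditions, in calls and in width. The same fit called 7807 members higher in females and 6964 higher in males after withdrawal (22.7% and 20.3% of members), and 6754 and 6542 in controls (19.7% and 19.1% of members). Over all tested transcripts the shares were 22.2% and 20.1% after withdrawal and 19.2% and 18.5% in controls. Group sizes differ, with 2 libraries against 2 under alcohol, 2 against 3 after withdrawal and 3 against 2 in controls, so the counts are not directly comparable. The SD over members of the log2 sex difference, which needs no call, was 0.587 under alcohol, 1.01 after withdrawal and 0.842 in controls. Such widths depend on the rescaling and on the value added before taking logs. The 1000 transcripts at the top held 40.7% to 48.1% of TPM in the alcohol libraries, against 61.3% to 71.6% in the other brain libraries. A single divisor per library leaves that composition as it is. Its part in the narrower width was not tested and cannot be told apart from alcohol exposure. Between single alcohol female and male libraries, the mean SD was 0.681, but 0.869 without rescaling and 1.31 with 0.1 TPM added. The widths after withdrawal and in controls were not computed under those settings.

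The difference between conditions was tested directly. The sex difference under alcohol differed from that in controls in 9783 members (28.5%), with 4880 above 0 and 4903 below 0. Over all tested transcripts the share was 27.5%, with 13.7% above and 13.8% below 0. It differed from that after withdrawal in 7278 members (21.2%), with 2997 above 0 and 4281 below 0. Over all tested transcripts the share was 20.8%, with 8.66% above and 12.1% below 0. Both tests share the alcohol libraries, and the split by direction rests on the scaling. Without rescaling, the splits were 2628 above and 7506 below 0 against controls, and 7071 above and 1452 below 0 against withdrawal, where the median over all tested transcripts was −0.247 and 0.326, against 0 and −0.015 with rescaling. The count against controls was 6383 without alcohol female replicate 2 and 6465 without control male replicate 2. The count against withdrawal was 4108 without alcohol female replicate 1, 4121 without alcohol female replicate 2 and 4154 without withdrawal female replicate 1.

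Part of the female-higher calls under alcohol recurred in the other brains. Of the 1361, 786 (57.8%) were higher in females after withdrawal and 143 (10.5%) higher in males, beside 22.2% and 20.1% of all tested. In controls 559 (41.1%) were higher in females and 156 (11.5%) higher in males, beside 19.2% and 18.5% of all tested. These 786 and 559 were 10.1% of the female-higher calls after withdrawal and 8.28% of those in controls. In 376 the female excess was called in all 3 conditions, a count given without a share over all tested transcripts. Their median rescaled TPM was 8.37 in alcohol females and 0.161 in alcohol males, 25.1 and 0.219 after withdrawal, and 4.93 and 0.161 in controls, females given before males.

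Male-higher calls recurred in smaller number, after withdrawal at a share above that of all transcripts and in controls at a share near it. Of the 1099, 127 (11.6%) were higher in females and 409 (37.2%) higher in males after withdrawal, beside 22.2% and 20.1% of all tested. In controls 281 (25.6%) were higher in females and 244 (22.2%) higher in males, beside the 19.2% and 18.5% of all tested transcripts above. Those called higher in males in all 3 conditions numbered 18, also without a share over all tested transcripts. Their medians were 8.88 in alcohol females and 15.4 in alcohol males. Among them, ENSDART00000057957.3 was at 34.8 and 39 in alcohol females and 82.9 and 70.2 in alcohol males (log2 difference −1.03 ± 0.111 SE, limma adjusted p = 3.03e-04). It was at 140 and 129 in withdrawal females, against 192, 192 and 187 in withdrawal males, and at 238, 207 and 214 in control females, against 273 and 322 in control males. ENSDART00000004241.7 was at 1.63 and 1.33 in alcohol females and 5.25 and 4.98 in alcohol males (log2 difference −1.31, limma adjusted p = 6.33e-04).

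The other 3 named transcripts of this kind changed call when a library was left out. ENSDART00000161672.1 was at 2.8 and 2.48 in alcohol females and 6.85 and 6.71 in alcohol males, and ENSDART00000157247.1 at 7.7 and 10.9 in females and 17.2 and 16.8 in males. ENSDART00000111856.3 was at 3.48 and 3.65 in females and 6.04 and 7.05 in males. Their limma adjusted p-values were 0.0344, 0.0469 and 0.0305 with all libraries. Without any 1 alcohol library each lost its call, at up to 0.19, 0.258 and 0.153.

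**Figure D5:**
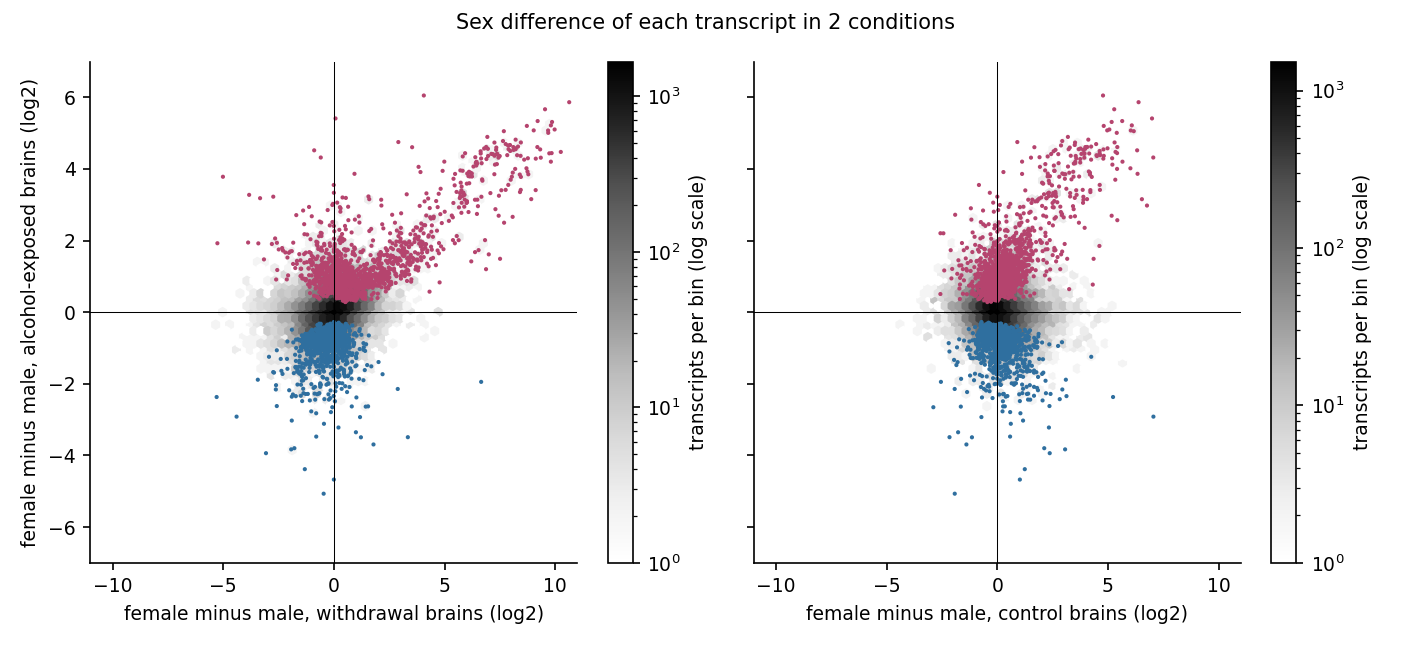
Female-minus-male log2 difference of each member in alcohol-exposed brains (vertical) against withdrawal brains (left) and control brains (right), with members called higher in females under alcohol in red, higher in males in blue and all members as grey bins. The red points extend into the upper right of both panels, while the blue points stay near 0 or on both sides of it on the horizontal axes.

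Across all 34320 members the log2 sex difference under alcohol correlated at 0.446 with that after withdrawal and at 0.0841 with that in controls. These pairs share no library, but the points are transcripts of the same libraries and are not independent. Between withdrawal and control it was −0.351. Members called in all 3 conditions without a common direction fell into several patterns. Shares over all tested transcripts are not given for them, so the pattern counts have no background. Higher in males under alcohol and after withdrawal but higher in females in controls were 213 members, with medians of 4.5 in alcohol females and 9.74 in alcohol males. After withdrawal these were 2.94 and 6.88, and in controls 5.64 and 2.28, females given before males. The mirrored pattern held 126 members, with 17.3 in alcohol females and 11 in alcohol males, 22.5 and 8.97 after withdrawal, and 12.7 and 22.5 in controls. The patterns that set withdrawal against the other conditions held fewer members. Higher in females under alcohol and in controls but higher in males after withdrawal were 93, and the reverse held for 80.

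ENSDART00000150000.1 had the largest difference from controls. It was at 2.77 and 5.13 rescaled TPM in alcohol females and 20.4 and 60.5 in alcohol males. After withdrawal it was at 8.58 and 19.8 in females and 336, 225 and 343 in males. In controls it was at 391, 230 and 204 in females and 0.376 and 1.88 in males. The female-minus-male log2 difference was −2.92 ± 0.564 (SE) under alcohol and 7.05 in controls, and the difference between them was −9.97 (limma adjusted p = 6.3e-05). The call under alcohol (limma adjusted p = 0.0123) was lost without male replicate 2 or female replicate 1, at up to 0.0913.

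ENSDART00000132000.2 followed it, at 0.993 and 1.83 in alcohol females and 8.13 and 15.5 in alcohol males. It was at 0.69 and 3.59 in withdrawal females, against 115, 100 and 110 in withdrawal males, and at 62.5, 63 and 69.2 in control females, against 0.941 and 0.583 in control males. Its call under alcohol (limma adjusted p = 0.00586) was lost without the same 2 libraries, at up to 0.0533. In the mirrored direction, ENSDART00000165279.1 was at 3.03 and 4.28 in alcohol females and listed at 0 in both alcohol males (limma adjusted p = 0.00102). It was at 9.39 and 5.52 in withdrawal females and listed at 0 in all 3 withdrawal males, while controls had 2.94, 1.78 and 2.14 in females and 14.3 and 23.4 in males. ENSDART00000165279.1 was not called in the fit on the 4 alcohol libraries alone. A transcript that differed from controls and was not called after withdrawal was ENSDART00000054744.6, also without a call in that fit. It was at 6.45 and 8.87 in alcohol females and 0.318 and 0 in alcohol males, a log2 difference of 2.90 ± 0.249 (SE, limma adjusted p = 5.29e-05). It was at 31 and 18.3 in withdrawal females and 21.1, 20.4 and 16.2 in withdrawal males, which overlapped, and at 16.4, 20.8 and 22 in control females and 46.7 and 45.5 in control males.

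The calls of the remaining named transcripts chosen for their difference from controls were lost when single libraries were left out. ENSDART00000154425.2 was at 7.71 and 8.96 in alcohol females and 3.02 and 0.0187 in alcohol males. ENSDART00000077978.4 was at 16.6 and 17.4 in females and 2.12 and 1.39 in males. Their limma adjusted p-values were 0.0289 and 0.0278, and reached up to 0.157 and 0.143 with 1 alcohol library left out. The first lost its call without male replicate 2 or either female replicate, and the second without any 1 of the 4, while its log2 difference stayed at 2.49 to 2.87, beside 2.72 with all libraries.

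Some sex differences were called under alcohol and in no other condition. Members called under alcohol, not called after withdrawal or in controls, and different from both in the direct tests were counted. They were 123 female-higher and 142 male-higher of the 34320 members, counts given without a share over all tested transcripts. In 115 of the 123, both alcohol females lay above all 12 other brain libraries, and their median levels were 2.26 rescaled TPM in alcohol females, 0.222 in alcohol males and 0.421 in the other brains. In 94 of the 142, both alcohol males lay above all 12 others, and in 53 both alcohol females lay below all 12. Their median levels were 1.35 in alcohol females, 5.56 in alcohol males and 2.77 in the other brains. Since both lists were chosen on these libraries, the positions follow in part from the choice, and positions and medians are descriptions. The female-higher medians also lie near or below the 1 TPM of the rule and of the value added before taking logs.

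Over all calls the same positions could be counted, which rest on the rescaling between conditions. Both alcohol females lay above all 12 other brain libraries in 508 of the 1361 female-higher members (37.3%), and both alcohol males lay below all in 157 (11.5%). Both alcohol females lay below all others in 359 of the 1099 male-higher members (32.7%), and both alcohol males above all in 504 (45.9%). Over all tested transcripts, alcohol females were above all others in 7.58% and below in 4.08%, and alcohol males above in 7.51% and below in 4.51%. Those shares are no fair background for calls, which already order the sexes. Of 9541 tested transcripts with both alcohol females above both males, females lay above all others in 2779 and males below all in 1656. Of 8845 with the reverse order, females lay below all in 1498 and males above all in 2754. The clearest named example on the female side was ENSDART00000133159.1. It was at 19.7 and 20.1 rescaled TPM in alcohol females and 1.2 and 0.444 in alcohol males, with 0.0673 to 0.508 in all 5 withdrawal libraries. Control females had 1.59, 0.959 and 0.435, and control males 0.159 and 9.24. Its log2 difference was 3.55 ± 0.742 (SE, limma adjusted p = 0.0182), and the call was lost without male replicate 2 or either female replicate, at up to 0.11.

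On the male side, 5 named members had the same direction in the alcohol brain and in all 3 livers. ENSDART00000127699.3 was at 4.07 and 3.62 in alcohol female brains and 14.8 and 16.2 in alcohol male brains (log2 difference −1.77 ± 0.161 SE, limma adjusted p = 8.65e-05). In alcohol liver it was at 2.09 and 2.89 in females and 23.8 and 48.1 in males. ENSDART00000162821.1 was at 13.1 and 17.7 in female brains and 44.1 and 37.4 in male brains (log2 difference −1.36 ± 0.163 SE, limma adjusted p = 6.8e-04), and at 52.2 and 52.5 in female livers and 199 and 224 in male livers. ENSDART00000166690.1 was at 1.53 and 0.934 in female brains and 9.22 and 5.28 in male brains.

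Both others of this kind lost their calls without single libraries. ENSDART00000109791.3, at 7.6 and 3.4 in female brains and 28.1 and 22.5 in male brains, had a limma adjusted p of 0.0074, and 0.0739 without female replicate 2. ENSDART00000033118.5, at 0.435 and 0.9 in female brains and 3.26 and 3.23 in male brains, had a limma adjusted p of 0.0146, which reached up to 0.107 without male replicate 1, male replicate 2 or female replicate 1. Its liver level was 240 and 251 in alcohol females and 903 and 923 in alcohol males.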

How the data were processed

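Pooled brain and liver RNA was sequenced from non-stranded libraries, as the labels' protocols state. The submitters' processing notes name FastQC 0.11.7, STAR 2.5.2, RSEM 1.3.1 and the danRer10 build. The authors deposited TPM for 57918 transcripts, 1 table per tissue, and nothing states how TPM was filtered. Depth is unknown, so no counting interval is given.

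Transcripts at 1 TPM or more in at least 2 libraries were tested: 36682 in brain and 21158 in liver. TPM was rescaled by the median of ratios over the transcripts without a 0 (27390 in brain, 14468 in liver). This assumes that the typical transcript was unchanged. Values were log2(TPM + 1), which understates changes at low levels. A limma 3.58.1 trend model in R 4.3.3, with 6 group means, was fitted to each tissue across all tested transcripts, leaving 8 residual degrees of freedom in brain. Calls used a Benjamini-Hochberg adjusted p below 0.05. Plots were drawn with matplotlib 3.10.9 in Python 3.11.15. Single transcripts are given as rescaled TPM and sums, shares and abundance classes as deposited TPM. Of the members, 117 had the same values as another tested transcript in every brain library, none of them named.

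Named were, in each direction, the 10 largest non-overlapping called differences and the 5 most abundant called members past 2-fold without overlap. Also named were the 5 called members that differed most from the control sex difference. Of members called the same way in all 3 brain conditions, the 5 whose smallest difference over the 3 was largest were named. The same rule was applied over the alcohol brain and all 3 livers. Members and lists were chosen with earlier results of these data known. Intended gene and cell type lists could not be used without transcript-to-gene names. On simulated data for this comparison, 9 of 67, 34 of 67 and 63 of 66 changes of 0.5, 1 and 2 log2 units were recovered among 36682 transcripts, with 8 false calls. The changed transcripts all had a mean above 5 TPM and were far fewer than those called in the data. The simulated noise was normal, independent between transcripts and of equal spread in all 6 groups, which may not hold for the real libraries.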

Additional observations from a re-analysis of the deposited data

Results flagged for a closer look

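Sex differences that differed between conditions, by the test of the difference itself, were flagged. These were 9783 members for alcohol against control and 7278 for alcohol against withdrawal. The values below are the female-minus-male log2 difference under alcohol minus that in controls, for the named transcripts called for it, from the same limma fit. Where a group is listed at 0, as for ENSDART00000167307.1, ENSDART00000129524.2 and ENSDART00000078225.6, the size depends on the 1 TPM added before taking logs and is not a fold.

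Among named members higher in alcohol males, the value was −9.97 for ENSDART00000150000.1, −7.6 for ENSDART00000132000.2, −6.9 for ENSDART00000167307.1 and −6.31 for ENSDART00000162034.1. It was −5.92 for ENSDART00000170632.1, −5.69 for ENSDART00000129524.2, −5.63 for ENSDART00000166111.1 and −4.05 for ENSDART00000060971.4. It was −3.15 for ENSDART00000147869.1, −3.14 for ENSDART00000028373.4, −2.35 for ENSDART00000141498.1, −2.1 for ENSDART00000159483.1 and −2.06 for ENSDART00000033118.5. The smaller values were −1.96 for ENSDART00000127699.3, −1.85 for ENSDART00000166690.1, −1.23 for ENSDART00000084014.5, −0.92 for ENSDART00000066896.4, −0.779 for ENSDART00000162821.1 and −0.596 for ENSDART00000057957.3. ENSDART00000161672.1 went the other way, at 1.06, with a male excess that was larger in controls.

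Among named members higher in alcohol females, the value was 4.77 for ENSDART00000165279.1, 4.64 for ENSDART00000154425.2, 4.62 for ENSDART00000077978.4, 4.38 for ENSDART00000133159.1 and 4.1 for ENSDART00000054744.6. Those 5 were chosen for this difference. It was 2.88 for ENSDART00000081325.4, 1.32 for ENSDART00000059732.4, 1.24 for ENSDART00000004679.7 and 0.797 for ENSDART00000039267.6. The female excess was smaller under alcohol than in controls for ENSDART00000078225.6 (−2.73), ENSDART00000136837.1 (−2.47) and ENSDART00000061165.6 (−1.8), which are abundant in female liver.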

How the results depend on the processing

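Pooled libraries without stated fish of origin, 2 per sex, and TPM without depth limit these results. Small differences were rarely recovered in the simulated data. The count of 2460 called members became 4348 without rescaling (2520 female-higher, 1828 male-higher; past 2-fold 1507 and 871), 5162 by quantile normalisation (2538 and 2624; 701 male-higher past 2-fold) and 183 from the 4 alcohol libraries alone (167 and 16; past 2-fold 166 and 14). With the replicate block it was 1565 (636 male-higher). Whether equal replicate numbers pair the samples is not known. Deviations of same-numbered female and male alcohol libraries correlated at −0.0506, a check on 4 libraries that cannot exclude pairing. A pseudocount of 5 left 261 female-higher and 74 male-higher members past 2-fold. Leaving out 1 alcohol library gave 859 to 1883 calls (530 to 1113 female-higher, 329 to 770 male-higher; past 2-fold 471 to 794 and 199 to 361). The 514 members matched in alcohol liver became 830 by quantile normalisation, 145 from the 4 libraries alone and 310 to 446 without 1 library. Without rescaling, the difference from controls split into 2628 above and 7506 below 0, and that from withdrawal into 7071 and 1452. Without 1 library the difference from controls was called in 6383 to 9365 members (3147 to 4667 above, 3191 to 4735 below) and that from withdrawal in 4108 to 8582 (1570 to 3948 above, 2441 to 4634 below). The mean between-sex SD of 0.681 became 0.869 without rescaling, 0.753 by quantile normalisation, 1.31 with a pseudocount of 0.1 and 0.35 with 5. The top-1000 share difference of −1.64 percentage points ranged from −5.33 to 2.06 without 1 library, above 0 without male replicate 1 (2.06) and without female replicate 1 (0.374). The summed difference of 14.8 TPM over the 7 liver-rich transcripts ranged from 13.4 to 16.3. For the 49 named transcripts, 582 of 686 alternative values kept the direction and the call, 104 kept the direction without the call and 0 changed direction. In the fit on the 4 alcohol libraries alone, 31 of the 49 lost the call. Beyond the differing number of samples, the cause of each change was not tested.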
